A study of Mus musculus with 14 samples.

Results

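This section describes the wide regions of a SOX10 ChIP list from a mouse mammary tumor model. They were taken as the regions of 1500 bp or more, after chromosomes 4, 11, 15 and X had been left out. There were 338 such regions among 5925 on the 16 remaining chromosomes, and among 7929 in the whole list. Width alone chose them, so their widths are a description, and the other 5587 regions of the same chromosomes serve for comparison.

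The list comes from PY230 tumors, formed by transplanting cells of the mouse mammary tumor line PY230 into syngeneic mice (strain C57BL6J, adult). It covers 2 SOX10 ChIP samples, whose cells carried SOX10-AVI with BirA, against 1 control sample of PY230 tumor cells, and streptavidin beads with extra washes in SDS were used for all 3. The construct that the control cells carried, the promoter of the tagged SOX10, the number of mice and the time of tumor growth were not stated in the labels. PY230 is a single line, so the list describes 1 tumor model with tagged SOX10. The series has 14 samples in all, and the remaining samples (H3K27ac profiles of sorted normal mammary cells, and inputs) were not used here.

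SOX10 belongs to the SoxE group of transcription factors, which bind short AT-rich motifs in the minor groove through an HMG box and bend the DNA. Members of this group often bind as pairs at neighbouring motifs, and regulatory DNA they occupy can hold several such sites side by side. In ChIP a single bound site gives an enriched stretch of about the length of the DNA fragments, so a wider stretch can hold several sites, or a low and even elevation of reads. A region list alone cannot tell these apart.

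Wide regions carried only slightly more signal per base than narrower ones, but several times more in total. Their median signal was 0.0301 (quartiles 0.0245 and 0.0362), against 0.0265 for regions under 1500 bp (quartiles 0.0187 and 0.0349), a ratio of 1.13. The deposited signal is a value per region whose unit is not stated. By its arithmetic it behaves like coverage averaged over the bases of a region, so signal times width stands for the total over a region. This product had a median of 56.1 in wide regions (quartiles 43.9 and 69.8) and 17.3 in narrower ones (quartiles 10.3 and 25.9), a ratio of 3.25. The ratio of the median widths was 2.73, so most of the difference in the product is the width by which the regions were chosen. The list is 1 pooled result with no value per sample and no library totals. No value here has a replicate error, the depth is unknown, and no difference between wide and narrower regions was tested.

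The widths of the 338 regions ran from 1500 to 4063 bp, with a median of 1772 bp and quartiles of 1603 and 2064 bp. Most therefore lay close to the limit: 242 were under 2000 bp, 96 were 2000 bp or wider, and 33 were 2500 bp or wider. The 3 regions just inside the limit measured 1500, 1501 and 1501 bp and had signals of 0.0327, 0.0379 and 0.0334. The 3 just outside it measured 1498, 1497 and 1495 bp, with signals of 0.0284, 0.0862 and 0.0313. The limit thus cuts a continuous range and separates no distinct class. Wide regions made up 5.70% of the regions, 14.3% of the covered length (645 of 4522 kb) and 15.5% of the summed signal times width.

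**Figure D1:**
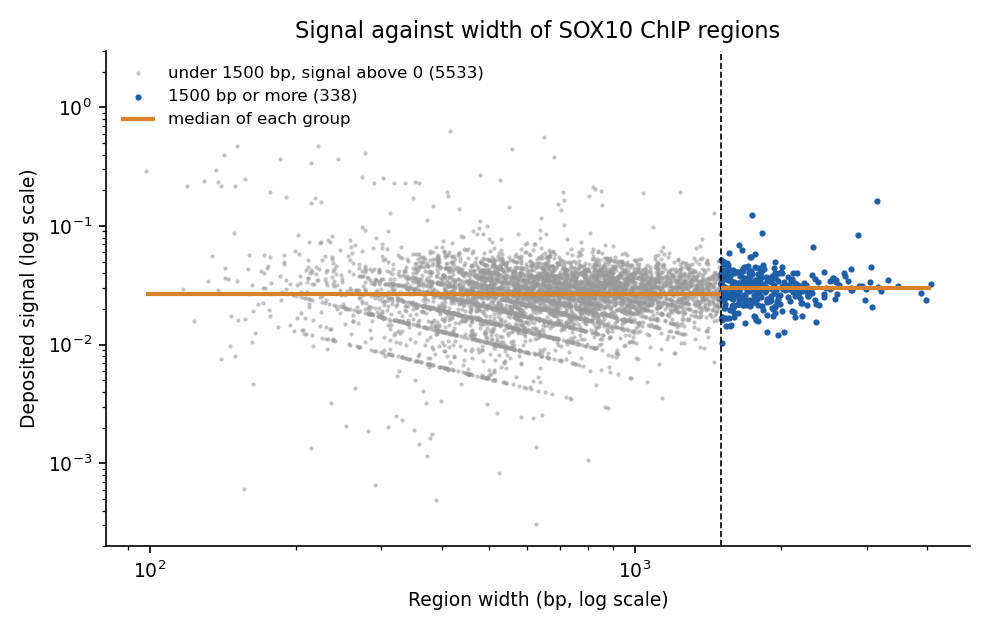
Deposited signal (log scale) against region width in bp (log scale) for SOX10 ChIP regions outside chromosomes 4, 11, 15 and X. Each point is 1 region, blue for the 338 of 1500 bp or more (right of the dashed line) and grey for narrower ones (54 at a signal of 0 are not drawn), and the orange lines are the medians of 0.0301 and 0.0265, the grey points spreading further up and down than the blue.

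Signals of the wide regions spanned a narrower range than those of narrower regions, as part of a gradual change with width. Their upper quartile was 1.47 times the lower, against 1.86 times for all regions under 1500 bp. The ratio was smaller in each wider class: 2.20 under 500 bp, 1.84 from 500 to under 1000 bp, 1.58 from 1000 to under 1500 bp and 1.56 from 1500 to under 2000 bp. The lower quartile was 1.31 times that of the narrower regions, and the upper quartile only 1.04 times. No wide region was listed at a signal of 0, and neither was any of the 909 regions from 1000 to under 1500 bp. The 54 regions at 0 were narrower, 47 of them under 500 bp and 7 from 500 to under 1000 bp. When the 5925 regions were ranked by signal and divided into 10 equal classes, the lowest class (0 to 0.0127) held 3 wide regions. Classes 5 to 9 held 45 to 50 wide regions each, and the highest class (from 0.0438) held 29. Wide regions were thus few at the bottom of the signal range and not collected at its top. The single strongest regions of these chromosomes were narrow: the highest signal was 0.626 under 500 bp and 0.164 among the wide regions.

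Expressed as reads, the wide regions rest on more than the narrower ones, although still on few. Signal times width fell on whole multiples of 0.0479 in 5533 of 5533 regions under 1500 bp with a signal above 0, within 0.05 of a multiple, against 10% for an arbitrary step. A read equivalent is taken here as 54 such steps, the length at which whole multiples piled up (41.2% of these regions). On this reading the median wide region held 21.7 read equivalents (quartiles 17.0 and 27.01) and the median narrower region 6.69 (quartiles 4.0 and 10.0). For the 252 wide regions of 1500 to 2042 bp the median was 20.0. Most of the 86 from 2060 bp did not fall on whole multiples of the step, so their read equivalents are less certain. Fewer than 10 were found in 8 of 338 wide regions, or 2.37%, and in 73.3% of the narrower ones. The share changed by steps with width, from 96.4% under 500 bp and 75.9% from 500 to under 1000 bp to 23.7% from 1000 to under 1500 bp, where the median was 13.0. Read equivalents are signal times width on another scale, so these differences again follow largely from the width by which the regions were chosen. They are readings of the deposited values and may be net of the control.

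The arithmetic of the signal changed within the wide regions, between 2042 and 2060 bp. All 252 regions from 1500 to 2042 bp fell on whole multiples of the step, and 108 of them on multiples of 54. Of the 86 regions from 2060 to 4063 bp, 6 did, or 6.98%, against 10% for an arbitrary step, and none fell on a multiple of 54. Their median distance from a whole multiple was 0.227 steps, against 0.0168 for the 252. The signal of the widest regions was thus not written in the same way as that of the rest, and how far it departs from a mean over every base was not tested. Medians on both sides were close: 0.0303 (quartiles 0.0240 and 0.0375) up to 2042 bp, and 0.0300 (quartiles 0.0261 and 0.0341) from 2060 bp.

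**Figure D2:**
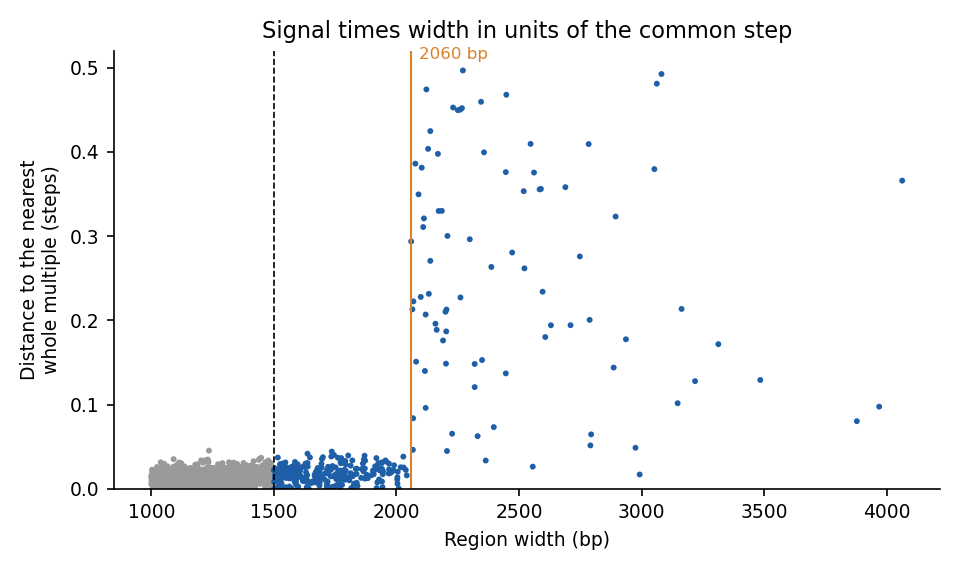
Distance of signal times width from the nearest whole multiple of the step of 0.0479 (in steps, at most 0.5) against region width in bp, for regions of 1000 bp or more. Each point is 1 region (grey under 1500 bp, blue from 1500 bp, dashed line at the limit), and the points leave the band under 0.05 at the orange line at 2060 bp.

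Within the wide regions, signal and width were almost uncorrelated. Across the 338 regions Pearson's r was 0.081 and Spearman's rho was -0.023, given as a description, since the regions share their libraries and the width that selected them. The small positive r rests on 1 region, the strongest: without it r was -0.0043. From 2000 bp upward r was 0.19 and rho 0.11 over 96 regions that include it, and up to 2042 bp they were -0.032 and -0.048 over 252 regions.

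Wide regions lay unevenly over the chromosomes. Chromosomes 18, 13, 19 and 1 had the highest shares, with 34 of 393 (8.65%), 50 of 587 (8.52%), 27 of 317 (8.52%) and 50 of 650 regions (7.69%). Together these 4 held 161 of the 338 wide regions (47.6%) and 32.9% of all 5925. On the other 12 chromosomes the share was 2.21% to 5.35%, lowest on chromosomes 16, 9 and 17 with 5, 8 and 6 wide regions. The left-out chromosomes as a set had a higher share than any of these: 244 of their 2004 regions (12.2%) were 1500 bp or wider, up to 9185 bp. Chromosomes with more regions per Mb tended to have a larger share of wide ones. Spearman's rho was 0.71 and Pearson's r 0.86 over 16 chromosomes, a description, since both measures come from the same libraries and the same list and the largest end coordinate stood for the length. At 4.98 and 5.17 regions per Mb, chromosomes 13 and 19 were the densest of the 16.

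The small excess of signal was seen on most chromosomes but varied in size. The median signal of wide regions was above that of narrower ones on 14 of 16 chromosomes, with ratios over all 16 from 0.934 to 1.38. It was highest relative to narrower regions on chromosome 16 (0.0342 against 0.0248, 5 wide regions) and chromosome 9 (0.0318 against 0.0238, 8 wide regions), where few wide regions were found. Among chromosomes with more members, chromosome 12 had 0.0313 against 0.0245 (17 wide regions) and chromosome 19 had 0.0355 against 0.0283 (27 wide regions), the highest wide median of all. On chromosomes 1 and 3 the medians hardly differed (0.0296 against 0.0294, and 0.0233 against 0.0231). On chromosomes 7 and 17 the order was the other way (0.0250 against 0.0265, and 0.0239 against 0.0256). The share of summed signal times width held by wide regions exceeded their share of length on 14 chromosomes, by at most 3.4 percentage points.

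**Figure D3:**
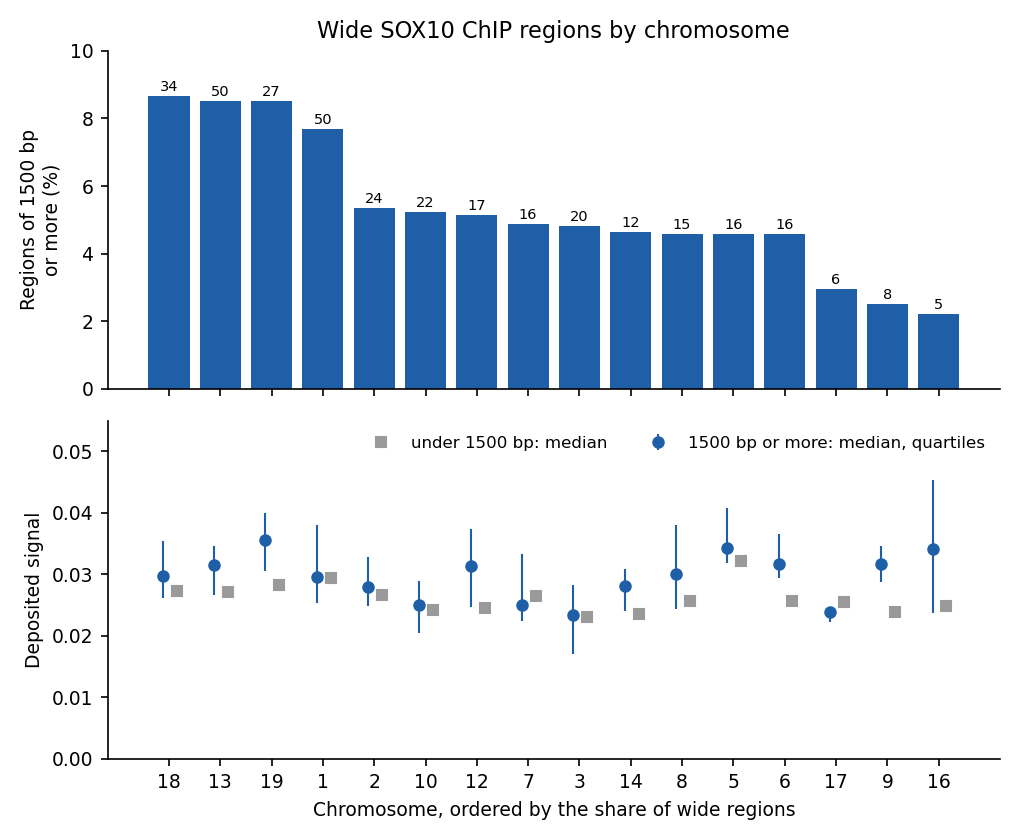
Top, the percentage of each chromosome's SOX10 ChIP regions that were 1500 bp or wider, with their number above each bar. Bottom, the median deposited signal of these wide regions (blue, bars from lower to upper quartile) and of narrower regions (grey squares), the 4 leftmost chromosomes standing at 7.69% to 8.65% and the others at 5.35% or less.

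In this list a larger share of wide regions than of narrower ones had another region close by. Another region lay less than 10 kb from the edge of 164 of the 338 (48.5%, exact binomial interval 43.08 to 53.99 at 95%), against 1959 of 5587 narrower regions (35.1%, 33.8 to 36.3). These intervals cover counting error only and treat regions as independent, which neighbours are not. The median gap to the nearest region was 11.05 kb for wide regions (quartiles 2.49 and 52.6) and 23.8 kb for narrower ones (quartiles 4.89 and 92.5). The share with a neighbour was larger in each wider class: 30.8% under 500 bp, 34.9% from 500 to under 1000 bp, 43.1% from 1000 to under 1500 bp, 47.1% from 1500 to under 2000 bp and 52.1% from 2000 bp. Against the class of 1000 to under 1500 bp alone, the share in wide regions was 1.13 times as high rather than 1.38 times, and the intervals overlap (39.9 to 46.4 for that class).

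The number of neighbours was small. Of the wide regions, 174 had none within 10 kb, 109 had 1, 38 had 2, 13 had 3 and 4 had 4. At least 2 neighbours were found for 16.3% of wide regions and 10.1% of narrower ones, with 12.4% in the class of 1000 to under 1500 bp. The regions with 4 lay on chromosome 10 (chr10:111273296-111274934), chromosome 12 (chr12:26470089-26471611), chromosome 18 (chr18:47319416-47321096) and chromosome 19 (chr19:24240608-24242112). Their signals of 0.0221, 0.0407, 0.0261 and 0.0331 fell on both sides of the wide median. By chromosome, the share of wide regions with a neighbour was above that of narrower ones on 12 of 16. It reached 72.7% on chromosome 10 (16 of 22) and 70.4% on chromosome 19 (19 of 27), and it was 0 of 8 on chromosome 9, where 34.6% of narrower regions had one.

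Some wide regions were separated from the next region by only a few bases. The nearest region was less than 100 bp away for 19 wide regions (5.62%) and for 170 narrower ones (3.04%), and less than 1 kb away for 51 (15.1%) and 513 (9.18%). In the class of 1000 to under 1500 bp these shares were 3.85% and 12.4%. The smallest gap was 54 bp for a wide region and 53 bp in the list of these chromosomes, so nearby stretches were listed apart down to about the length taken as 1 read. Joining regions less than 1 kb apart turned 5925 regions into 5633 and raised the number of 1500 bp or more from 338 to 497, the widest then measuring 5202 bp. The share with a neighbour within 10 kb became 37.0% for these 497. The number of wide regions, and their neighbours, thus depend on where 1 region is taken to end.

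Wide regions were as often weaker as stronger per base than the narrower regions beside them. For 153 wide regions with at least 1 narrower region within 10 kb, the median signal was 0.0296, and the median of their neighbours' mean signals was 0.0292. The wide region had the higher signal in 77 of the 153 (50.3%). In the same comparison for 315 regions of 1000 to under 1500 bp beside neighbours under 1000 bp, the wider region was higher in 182 (57.8%). By signal times width, the wide region exceeded each of its narrower neighbours in 144 of 153 (94.1%), but that product contains the width. Single pairs differed in both directions: the ratio of a wide region's signal to its neighbours' mean had quartiles of 0.782 and 1.36 around a median of 1.01, and 47 of the 153 (30.7%) were more than 1.5 times apart. Among the widest 20, chr18:65277307-65280619 had a signal of 0.0348 and its neighbour 0.0071, a value in the lowest of the 10 signal classes. The other way round, chr8:129117849-129120642 had 0.0288 and its neighbour 0.0511.

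**Figure D4:**
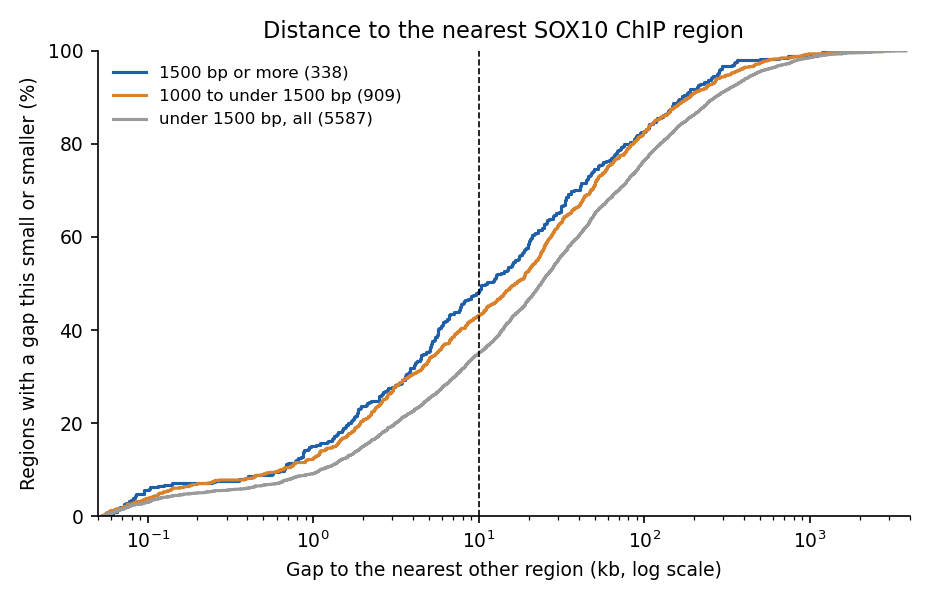
Cumulative percentage of regions against the gap to the nearest other region of the list (kb, log scale), for regions of 1500 bp or more (blue), 1000 to under 1500 bp (orange) and all under 1500 bp (grey). At the dashed line of 10 kb the curves stand at 48.5%, 43.1% and 35.1%, with the widest class uppermost.

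The 20 widest regions measured 2784 to 4063 bp and lay on 8 chromosomes, with 7 of them on chromosome 13 and 3 on chromosome 18. They were wide but not strong: their median signal was 0.0308, 13 of the 20 lay between the quartiles of all wide regions, 4 above and 3 below, and 2 were among the 20 wide regions of highest signal. In signal times width they ran from 64.5 to 516 with a median of 95.1, and 10 were among the 20 highest wide regions. All 20 are wider than 2060 bp, where the signal had left the common step. Positions are those of the list, in build mm9 with 1-based starts. No sequence or annotation of that build was used here, so regions are given by position and not by gene.

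The widest was on chromosome 13 (chr13:71514320-71518382, 4063 bp) with a signal of 0.0323 and 1 neighbour at 1.84 kb. It was followed by a region of 3969 bp on chromosome 10 (chr10:42611056-42615024, signal 0.0236) with 1 neighbour at 1.78 kb. The next, of 3878 bp on chromosome 12 (chr12:25934772-25938649, signal 0.0274), ended or began 54 bp from another region. Rank 4 was on chromosome 8 (chr8:129189201-129192684, 3484 bp, signal 0.0310, nearest region at 85 bp), and rank 5 on chromosome 18 (chr18:65277307-65280619, 3313 bp, signal 0.0348, nearest at 3.57 kb). Signals of these 5 lay between 0.0236 and 0.0348, inside the quartiles of the narrower regions (0.0187 and 0.0349).

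Ranks 6 and 7 stood alone, on chromosome 10 (chr10:67700460-67703677, 3218 bp, signal 0.0281, nearest region at 37.7 kb) and chromosome 18 (chr18:68602670-68605832, 3163 bp, signal 0.0305, nearest at 52.7 kb). Rank 8 was the strongest wide region of all, on chromosome 1 (chr1:85320437-85323583, 3147 bp), with a signal of 0.164, 5.45 times the wide median. It had 2 neighbours within 10 kb, the nearer at 84 bp, with signals of 0.150 and 0.192. Further listed regions within 50 kb of its centre had 0.174, 0.195 and 0.219. The high signal was thus shared by all listed regions around it. Ranks 9 and 10 were on chromosome 13 (chr13:83879197-83882277, 3081 bp, signal 0.0209) and chromosome 16 (chr16:25423880-25426941, 3062 bp, signal 0.0454). The former had the lowest signal of the 20 and 2 neighbours, and the latter was the most isolated of the 20, with its nearest region 160 kb away.

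Chromosome 13 supplied 5 of the next 10. These were chr13:63345569-63348620 (3052 bp, signal 0.0339, nearest region at 82 bp), chr13:5801099-5804073 (2975 bp, 0.0240), chr13:20272441-20275376 (2936 bp, 0.0310), chr13:104766219-104769112 (2894 bp, 0.0314, nearest at 1.77 kb) and chr13:63424259-63427049 (2791 bp, 0.0435). The regions starting at 5801099, 20272441 and 63424259 had no neighbour within 10 kb, with nearest gaps of 32.4, 67.4 and 16.6 kb. The remaining 5 were chr12:9862492-9865483 (2992 bp, signal 0.0296), chr18:3116398-3119283 (2886 bp, 0.0840), chr8:129117849-129120642 (2794 bp, 0.0288), chr1:184297409-184300196 (2788 bp, 0.0300) and chr2:103228441-103231224 (2784 bp, 0.0287). The chromosome 18 region among these lay 62 bp from its neighbour, which was the first listed region of that chromosome, and had rank 4 of the wide regions by signal.

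A neighbour within 10 kb was found for 13 of the 20 (65%), against 48.5% of all wide regions. The gap was under 100 bp for 5 of them, against 19 of the 338. None of the neighbours was itself 1500 bp or wider, but only 21 of the 338 (6.21%) had such a neighbour. Within 50 kb of the centre, the 20 had 45 other regions between them, from 0 to 5 each with a median of 2. The same count was not made for other regions. None of the 20 had more than 2 neighbours within 10 kb, and among all 338 only 13 had 3 and 4 had 4. At shares this low a set of 20 may hold no such region, so neither absence sets the widest regions apart.

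**Figure D5:**
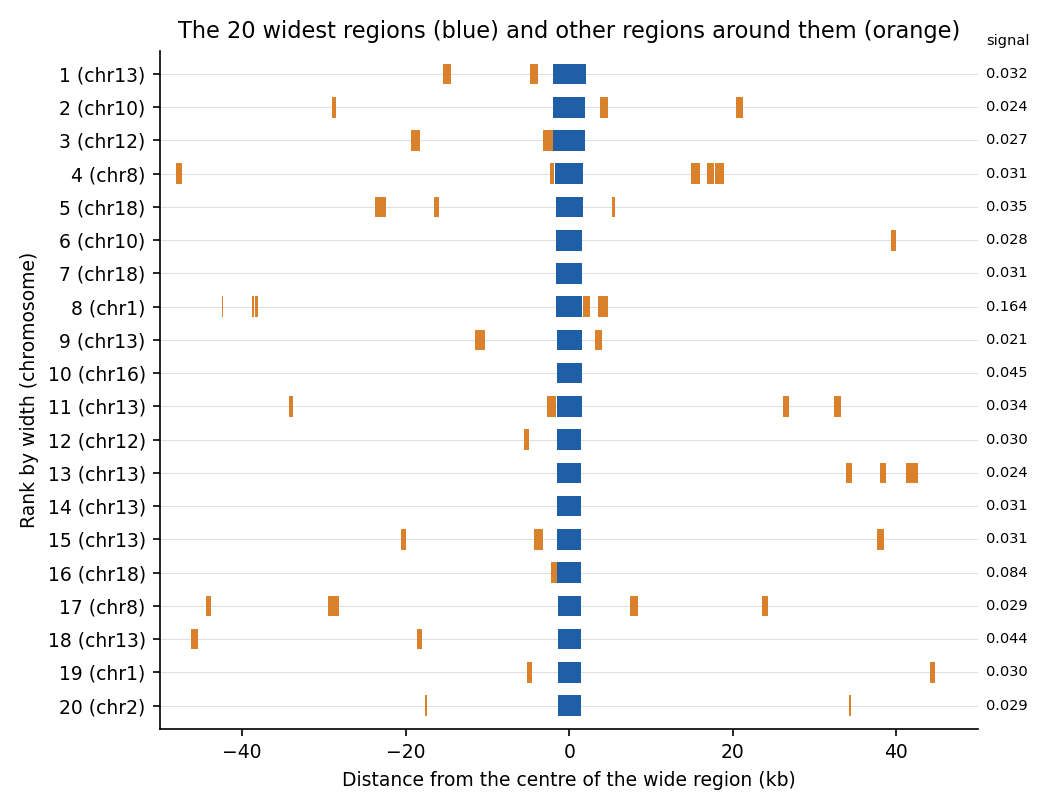
The 20 widest regions (blue, drawn to scale at their centre) and all other listed regions within 50 kb (orange), 1 row per region in order of width from 4063 to 2784 bp, with the distance from the centre in kb on the horizontal axis and the deposited signal at the right. Rows hold 0 to 5 other regions, and 3 rows hold none.

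On the 8 chromosomes without a region among the 20, the widest regions measured 2172 to 2689 bp. Chromosome 19 had one of 2689 bp (chr19:21109624-21112312, signal 0.0399), chromosome 9 one of 2596 bp (chr9:31646608-31649203, 0.0338) and chromosome 3 one of 2556 bp (chr3:84577768-84580323, 0.0368). Those of chromosomes 17, 6 and 5 measured 2349 bp (chr17:71199855-71202203, 0.0239), 2331 bp (chr6:68199935-68202265, 0.0667) and 2227 bp (chr5:73957043-73959269, 0.0330). Chromosomes 7 and 14 had 2200 bp (chr7:120733511-120735710, 0.0224) and 2172 bp (chr14:61613886-61616057, 0.0270). Of these 8, the chromosome 6 region had the highest signal.

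The 5 strongest wide regions lay at 4 places on 3 chromosomes. After the chromosome 1 region at 0.164, ranks 2 and 5 lay 95 bp apart on the same chromosome (chr1:87424701-87426445, 1745 bp, signal 0.123, and chr1:87422966-87424605, 1640 bp, 0.0697). Every region listed between the strongest and rank 5 was under 1500 bp and had a higher signal than rank 5. The same held for the regions after rank 2, up to chr1:87548580-87550076 (1497 bp, 0.0862). The strong wide regions of chromosome 1 thus lay in a stretch where narrower regions were strong too. Rank 3 was on chromosome 12 (chr12:94120996-94122821, 1826 bp, 0.0881), with another wide region of 1663 bp and signal 0.0623 at 6.57 kb, and rank 4 was the chromosome 18 region beside the first listed one. The 10 highest by signal times width were these 5, with the chromosome 6 region at 155, the chromosome 16 region at 139 and 3 others of the widest 20: chr13:71514320-71518382 at 131, chr13:63424259-63427049 at 122 and chr18:65277307-65280619 at 115. The strongest region, at 516, stood at 2.13 times the next, at 242.

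The weakest wide regions were spread over 5 chromosomes. The lowest signal was 0.0103, in a region of 1512 bp on chromosome 8 (chr8:26550411-26551922) with 6.0 read equivalents. It was followed by chr19:56738709-56740680 (1972 bp, 0.0121), chr3:21861109-21863137 (2029 bp, 0.0127), chr18:24178771-24180641 (1871 bp, 0.0128) and chr14:122013677-122015247 (1571 bp, 0.0144). These 5 held 6.0 to 10.0 read equivalents over 1512 to 2029 bp, and 3 of them had no neighbour within 10 kb.

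Most wide regions had no other wide region within 100 kb. With wide regions less than 100 kb apart treated as 1 group, 264 of the 338 stood alone. The other 74 (21.9%) fell into 33 groups on 11 chromosomes. Chromosome 13 had 8 of the groups and 50 of the 338 wide regions. This grouping was not made for narrower regions, so these shares have no comparison and are not a trait of wide regions. Within 10 kb, 21 wide regions (6.21%) had another wide region, where 206 narrower ones (3.69%) did. In the class of 1000 to under 1500 bp the share was 5.72%, close to that of wide regions. There were 27 groups of 2, 4 of 3 and 2 of 4. The groups described next were chosen for their size after the values had been seen.

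The larger groups spread over 18.2 to 212 kb. A group on chromosome 8 (chr8:129117849-129330198) held 4 wide regions among 10 listed regions over 212 kb, including ranks 4 and 17 by width. Their signals were 0.0288, 0.0310, 0.0551 and 0.0482, the 2 narrower ones being the stronger. The other group of 4, on chromosome 19 (chr19:21105320-21242603), had 9 listed regions over 137 kb and wide signals from 0.0266 to 0.0400. Groups of 3 were found on chromosome 10 (chr10:18128168-18227417), on chromosome 13 (chr13:5712387-5864187 and chr13:90397404-90535539) and on chromosome 18 (chr18:47308181-47326423). The chromosome 18 group was the tightest of these, with 3 wide regions and 1 narrower one in 18.2 kb and 6.63 kb of that covered by the wide ones. Its wide signals were 0.0352, 0.0261 and 0.0221, the last below the lower quartile of wide regions and the others between the quartiles.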

How the data were processed

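SOX10 ChIPmentation of PY230 tumors was analysed from 1 list of regions for both ChIP samples against the control. The signal per region is the authors' value, as deposited, and its formula is not given in the sources used here. Per the submitters' processing notes, FastQC, Bowtie 0.12.8, SAMtools 1.3.1, MACS2 2.1.1 and mm9 were used, without parameters. Chromosomes 4, 11, 15 and X were dropped. Widths, signal times width, edge-to-edge gaps and neighbours under 10 kb were computed with Python 3.11.15, pandas 2.3.3, NumPy 2.4.6 and SciPy 1.17.1, and the functions were tested on simulated data. No test was run, since the list has no replicates and regions are not replicates. Intervals are exact binomial at 95% and cover counting error only. Named regions are the 20 widest, the widest of each chromosome, the 5 highest and 5 lowest by signal, the 10 highest by signal times width, the 5 with the most neighbours and 3 on each side of the limit. The members and these choices were made with earlier results of these data known. The planned gene and SOX motif descriptions were not run, as no mm9 sequence or annotation was used here. Alternatives were other width and gap limits, all 20 chromosomes, joined regions, and sets without extreme signals.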

Additional observations from a re-analysis of the deposited data

How the results depend on the processing

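No paired analysis was possible because both ChIP samples share a single list, which also means that neither library could be left out. With the width limit at 1200 bp or 2000 bp there were 771 or 96 wide regions, holding 28.5% or 5.80% of the summed signal times width. On all 20 chromosomes there were 582, with a median signal of 0.0337 (1.22 times that of narrower regions), 21.7% of the product (1.17 times their share of length) and a neighbour for 54.3%. Joining regions under 1 kb apart gave 25.4% of the product and a neighbour for 37.0%. The share with a neighbour was 35.5% at gaps under 5 kb and 58.6% under 20 kb. Against regions of 1000 to under 1500 bp alone, the ratio of median signals was 1.07 and that of shares with a neighbour 1.13. Members of 1500 to 2042 bp, an alternative added after the values were seen, held 10.2% of the product. From 2000 bp Pearson's r of width and signal was 0.195 and rho 0.111, and up to 2042 bp, also added later, r was -0.032. The cause was not tested where it does not follow from the changed limit. In all alternatives run, the ratios of signal and of shares with a neighbour stayed above 1 (1.07 to 1.22 and 1.13 to 1.47). No value has a replicate error, so the order of single regions by signal is uncertain. Most regions also held few read equivalents, a reading of values that may be net of the control.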
